A study of Bos taurus with 15 samples.

Results

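Core interferon-stimulated genes, 6 of the 27607 genes in the raw count table, were described in peripheral white blood cells (PWBC) of 15 beef heifers. They were listed by Ensembl ID, and the list used no threshold on a measured value. They are ISG15 (ENSBTAG00000014707), MX1 (ENSBTAG00000030913), MX2 (ENSBTAG00000008471), RSAD2 (ENSBTAG00000016061), OAS2 (ENSBTAG00000014628) and IFI6 (ENSBTAG00000007554), and all 6 were among the 12270 genes left by the filter on low counts. PWBC are the nucleated cells that remain once the red cells have been lysed. The heifers were Angus-Simmental crosses, all bled at weaning. All were later bred alike, by timed artificial insemination (AI) after synchronized estrus and then by exposure to bulls. They were grouped afterwards as pregnant to AI (8 heifers, IDs 4, 6, 34, 40, 41, 43, 45 and 47) or not-pregnant (7 heifers, IDs 3, 33, 37, 39, 42, 44 and 48). The labels of the latter say not pregnant to AI, and per the methods heifers pregnant by a bull were left out. Each heifer gave 1 library, so the heifer was the replicate.

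Type I interferons bind a shared receptor on nearly all cells, and signalling from the receptor to the nucleus switches on a broad set of antiviral genes. In healthy blood these genes are expressed at a low level, and they rise within hours of a viral infection. In ruminants the conceptus secretes a type I interferon of its own, interferon tau, and the same genes in blood leukocytes are used as markers of early pregnancy. The blood here was drawn before insemination, and the comparison asks whether their level at weaning differed between heifers that later did or did not become pregnant.

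Heifers 33 and 43, one from each group, held the highest 2 values for ISG15, MX1, MX2 and RSAD2. For IFI6 heifer 43 was below heifers 48 and 44, for OAS2 heifer 33 was below heifer 34, and the groups overlapped for every gene. Heifer 33 (not-pregnant) was at least 2.40 times the median heifer for all 6 genes and heifer 43 (pregnant to AI) at least 2.30 times. No gene of the 6 passed the edgeR test between groups. DESeq2, run here in a later version than the study's, called IFI6, against 9.1% of all genes. In edgeR the estimates for IFI6 and ISG15 were lower in heifers pregnant to AI by 0.91 and 0.73 on the log2 scale, without passing. The 95% interval of ISG15 included 0. MX1 was slightly lower too, and the estimates for MX2, RSAD2 and OAS2 were positive. IFI6 and ISG15 had the highest correlation of any pair across heifers.

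Expression is given as CPM, the read count of a gene as a share of its library, scaled by TMM, which corrects each library for composition as well as size. Libraries held 15987111 to 24909038 counts on genes, and TMM factors lay between 0.842 and 1.14. Each gene had at least 236 counts in every heifer except OAS2, which had 45 to 1071. Counting error was therefore at most 6.51% of a value for the other 5 genes and at most 14.9% for OAS2, and intervals from counts cover counting error only. Levels were compared between heifers and not between genes, since counts also depend on transcript length.

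ISG15 encodes a ubiquitin-like protein that is attached to other proteins during the interferon response. In heifers pregnant to AI its CPM was 17.6 at the lowest, 33.4 at the median and 254 at the highest. In not-pregnant heifers the lowest was 25.6, the median 62.4 and the highest 290. The top values belonged to heifers 43 and 33, and the next were heifers 48 and 44, both not-pregnant, at 123 and 98.7. Apart from heifer 43, every heifer pregnant to AI was below the median of the not-pregnant heifers. ISG15 spanned a 16.5-fold range, and its SD over heifers, 1.21 on the log2 CPM scale, was larger than that of 98.5% of the genes tested.

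IFI6 encodes a small membrane protein induced by interferon alpha. Its CPM in heifers pregnant to AI ran from 39.7 to 137 with a median of 53.1, and in not-pregnant heifers from 43.8 to 258 with a median of 83.1. Heifers 33, 48 and 44, all not-pregnant, were above every heifer pregnant to AI, with 258, 162 and 142 CPM. Heifer 43 was only the fourth highest, whereas it was first or second for the other 5 genes. The mean was 61.8 ± 31.5 CPM (SD, n = 8) in the group pregnant to AI and 116 ± 76.7 CPM (SD, n = 7) in the not-pregnant group.

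MX1 and MX2 encode dynamin-like GTPases that block viral replication. They are related in sequence and are neighbours in the RefSeq annotation of the later cattle assembly ARS-UCD2.0. Reads that fit both genes could therefore have been lost in the counting. MX1 varied least of the 6 genes, over a 4.42-fold range from 195 to 862 CPM. The highest heifers were 33 at 862 and 43 at 828.5 CPM, followed by heifer 6 (pregnant to AI) at 582 CPM. The median of MX1 was 350.0 CPM in the group pregnant to AI and 380.3 CPM in the not-pregnant group, and the groups overlapped. Heifer 6 did not stand out for other genes of the response, with 33.4 CPM of ISG15 and 14.6 CPM of RSAD2, both below the median of all heifers.

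MX2 covered a 17.8-fold range, the widest of the 6. Heifer 43 had 309 CPM, heifer 33 had 122 CPM, and the 13 others lay between 17.4 and 62.3 CPM. The group medians were nearly equal, at 48.3 CPM in the group pregnant to AI and 47.9 CPM in the not-pregnant group. The low end, 17.4 to 19.4 CPM, was formed by heifers 40 and 4 (pregnant to AI) and heifers 3 and 39 (not-pregnant).

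RSAD2 encodes viperin, a radical SAM enzyme that makes an antiviral nucleotide. Its CPM was 12.9 to 95.8 in heifers pregnant to AI, with a median of 19.0, and 14.1 to 54.6 in not-pregnant heifers, with a median of 21.9. Heifer 43 held the highest value and heifer 33 the next, and heifer 44 followed with 38.9 CPM. RSAD2 was again highest in the same pair, with the rest of both groups interleaved.

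OAS2 encodes an oligoadenylate synthetase, which senses double-stranded RNA and activates the nuclease RNase L. It was the gene with the fewest counts, and in the RefSeq annotation of ARS-UCD2.0 it overlaps its relative OAS1Y, so its counts are the least certain. Heifer 43 was highest at 49.8 CPM, but the second was heifer 34 (pregnant to AI) at 26.2 CPM, ahead of heifer 33 at 17.3 and heifer 44 at 16.7 CPM. For the other 5 genes heifer 34 was at or below the median heifer, down to 0.716-fold. Heifer 48, next after the extreme pair for ISG15, was among the lowest for OAS2 at 3.35 CPM. The medians were 6.05 CPM in the group pregnant to AI and 8.82 CPM in the not-pregnant group.

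**Figure D1:**
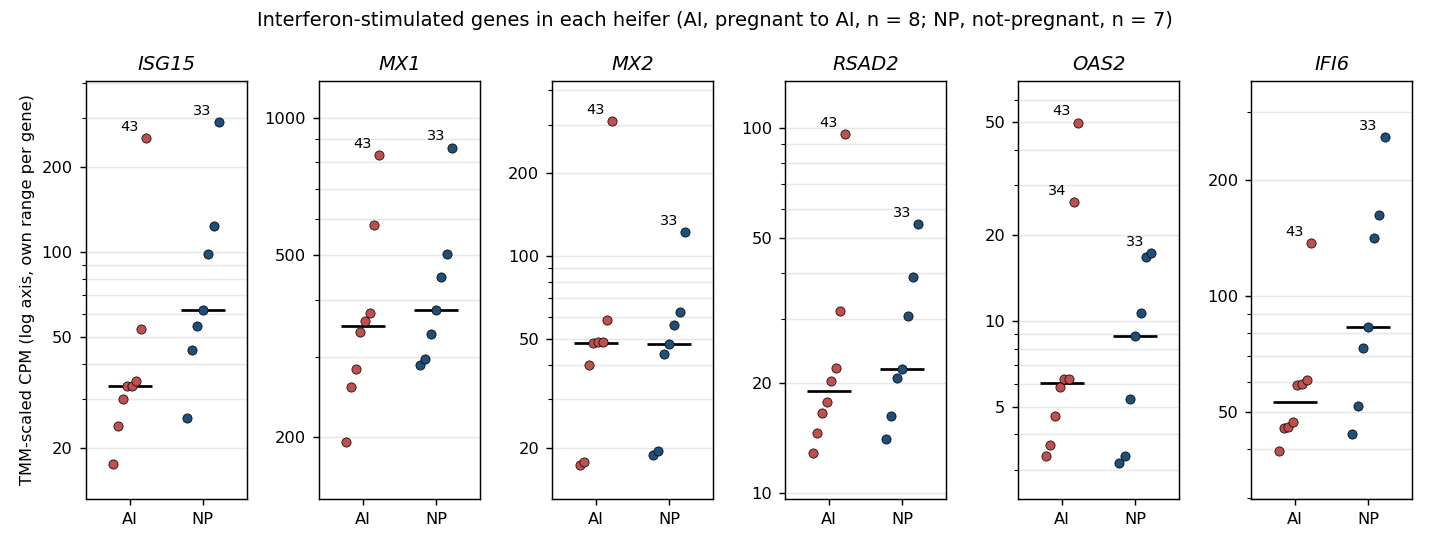
TMM-scaled CPM of each gene on a log axis, with 1 point per heifer, pregnant to AI (AI, 8 heifers) on the left and not-pregnant (NP, 7 heifers) on the right, and a bar at each group's median. Heifers 33 and 43 lie above nearly all others in every panel, heifer 34 is second highest for OAS2, and the remaining heifers of the groups overlap.

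The elevation in heifers 33 and 43 did not have the same make-up. Relative to the median of 15 heifers, heifer 33 was highest for ISG15 (6.46-fold) and IFI6 (4.38-fold), and its other 4 genes were between 2.40-fold and 2.78-fold. Heifer 43 was highest for OAS2 (7.98-fold) and MX2 (6.41-fold), with ISG15 at 5.66-fold, RSAD2 at 4.64-fold, and IFI6 and MX1 at 2.33-fold and 2.30-fold. The ratio of MX2 to IFI6 CPM was 0.471 in heifer 33 and 2.25 in heifer 43, the latter being the highest of all heifers and the lowest 0.234. The ratio of ISG15 to MX1 was in contrast close, at 0.336 and 0.307. These are 2 of 15 gene pairs, and their log2 ratios had an SD of 0.86 and 0.78 over the heifers other than 33 and 43. In both heifers every gene had a counting error of at most 4.82%, but each heifer gave a single sample and no biological error can be put on these ratios. Heifer 43 also had the smallest share of counts in the 100 most abundant genes, 19.1% against 21.6% to 31.7% in the others, and heifer 33 had 25.3%. The part of this in the values was not tested.

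Below that pair, no heifer was high for all 6 genes. Heifer 44 was above the median for 5 genes, with IFI6, OAS2, ISG15 and RSAD2 at 1.89-fold to 2.68-fold and MX1 at 0.826-fold. Heifer 48 was 2.75-fold for ISG15 and 2.74-fold for IFI6 but 0.993-fold for MX2 and 0.536-fold for OAS2. At the other end, heifers 4, 40 and 45, all pregnant to AI, and heifer 3, not-pregnant, each ranked among the lowest 4 heifers for 4 of the 6 genes.

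**Figure D2:**
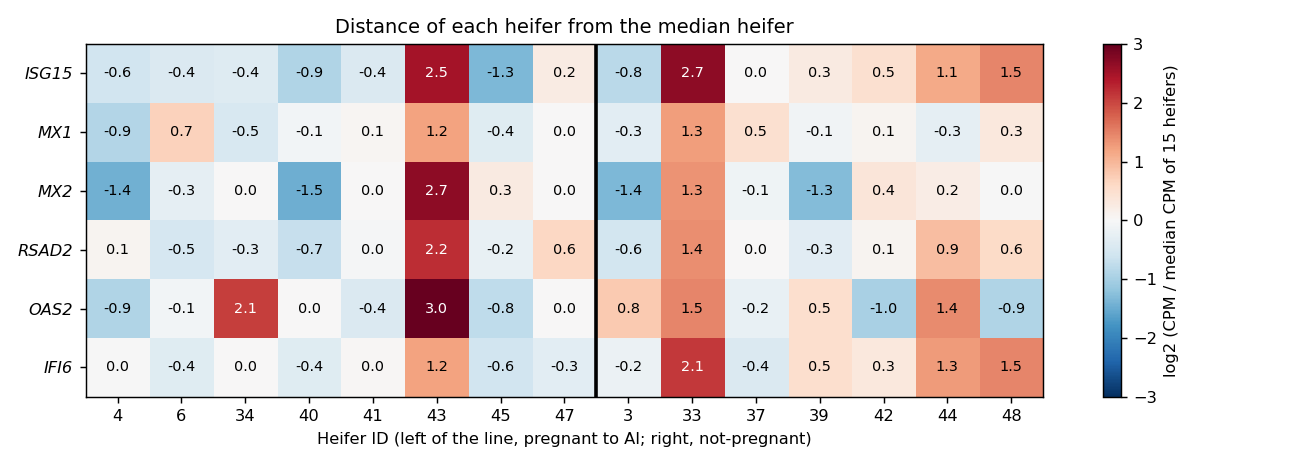
Log2 of each heifer's CPM over the median CPM of the 15 heifers, for each gene (rows) and heifer (columns, pregnant to AI left of the line and not-pregnant right of it). The columns of heifers 43 and 33 are positive throughout, up to 3.00 in heifer 43 and up to 2.69 in heifer 33, while heifer 34 is high for OAS2 alone.

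The coherence of the 6 genes was measured by correlating their log2 CPM across heifers, in 15 pairs. Over all 15 heifers, Pearson's r was between 0.37 (MX1 and OAS2) and 0.91 (ISG15 and IFI6), with a median of 0.61. In 13 of the 15 pairs r was at least 0.5. For comparison, only 2.93% of the other 12269 genes had an r that high with ISG15, and 12.7% with MX2. The first principal component of the 6 standardized genes held 71.2% of their variance.

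These values were lower without heifers 33 and 43, whose removal also narrows the range of each gene. Without them the median r was 0.19, 4 pairs had an r of at least 0.5, and the first component held 46.5%. The pairs that passed after adjustment by r were then ISG15 with IFI6 and ISG15 with RSAD2. ISG15 and IFI6 had r = 0.91 and Spearman's rho = 0.84 over 15 heifers (permutation tests, p = 2e-05 and 0.00015, Benjamini-Hochberg adjusted over 15 pairs p = 0.000225 and 0.00225). Without heifers 33 and 43, which were also the farthest from the median of ISG15, r was 0.86 and rho 0.77 (permutation tests, p = 0.00026 and 0.0029, adjusted p = 0.0039 and 0.0435). Among 12269 other genes, IFI6 had rank 5 by its r with ISG15 over all heifers and rank 2 over the 13. By its r with IFI6, ISG15 had rank 3 over all heifers and rank 9 over the 13. Over the 13, 77 other genes had an r of at least 0.8 with IFI6, against 11 over all heifers.

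ISG15 and RSAD2 had r = 0.89 and rho = 0.77 over 15 heifers (permutation tests, p = 3e-05 and 0.00114, adjusted p = 0.000225 and 0.00855). Without heifers 33 and 43, r was 0.76 and rho 0.65 (permutation tests, p = 0.00255 and 0.0175, adjusted p = 0.0191 and 0.132). RSAD2 and MX2 had r = 0.84 and rho = 0.71 (permutation tests, p = 9e-05 and 0.00389, adjusted p = 0.00045 and 0.0194). Without heifers 40 and 43, the farthest from the median of MX2, r was 0.65 (permutation test, p = 0.017, adjusted p = 0.0765), and without heifers 33 and 43 it was 0.54 (permutation test, p = 0.057, adjusted p = 0.214). RSAD2 and IFI6 had r = 0.63 and rho = 0.43 without heifers 33 and 43 (permutation tests, p = 0.0198 and 0.145, adjusted p = 0.0991 and 0.485).

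No pair with MX1 or OAS2 had an r of 0.5 or more without heifers 33 and 43. MX1 had r = 0.72 with ISG15 over 15 heifers (permutation test, p = 0.00248, adjusted p = 0.00561) with rho = 0.60 (p = 0.0196, adjusted p = 0.0511). Without heifers 33 and 43 this r was 0.31 and rho 0.38 (permutation tests, p = 0.3 and 0.194, adjusted p = 0.642 and 0.485). Leaving out that pair, the highest for both genes, narrows the range, so the drop cannot show what the relation rests on. The neighbours MX1 and MX2 had r = 0.71 and rho = 0.42 (permutation tests, p = 0.00262 and 0.123, adjusted p = 0.00561 and 0.231), and r = 0.34 without the pair (permutation test, p = 0.255, adjusted p = 0.636). OAS2 had r between 0.37 and 0.54 with the other 5 genes, none past 0.05 after adjustment (adjusted permutation p between 0.0548 and 0.169), and its rho was between 0.07 and 0.27. Without heifers 33 and 43 its r lay between -0.25 and 0.11.

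**Figure D3:**
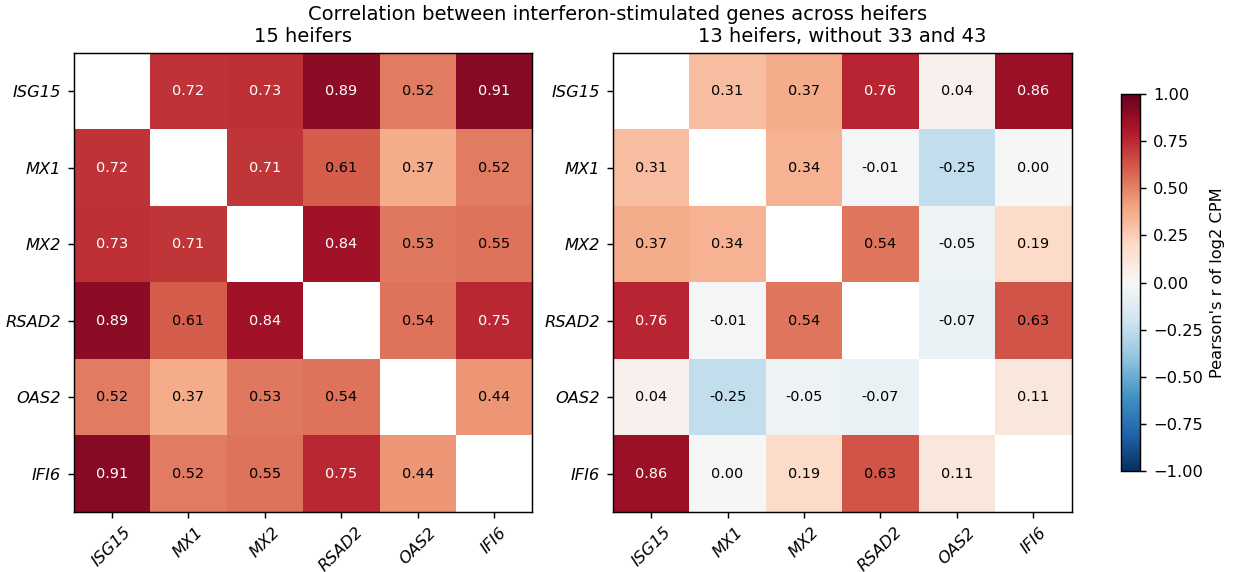
Pearson's r of log2 CPM for each pair of genes over 15 heifers (left) and over the 13 heifers other than 33 and 43 (right), on a colour scale from -1 to 1. ISG15 with IFI6 keeps an r of 0.86 on the right and ISG15 with RSAD2 0.76, while the rows of MX1 and OAS2 fall to between -0.25 and 0.34.

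Within each group, which held 1 extreme heifer each, the median r was 0.75 in the group pregnant to AI (n = 8) and 0.66 in the not-pregnant group (n = 7). ISG15 and IFI6 had an r of 0.91 and 0.94 in these groups, and ISG15 and RSAD2 had 0.94 in each. OAS2 with ISG15 had 0.78 in the group pregnant to AI and 0.26 in the not-pregnant group, and this difference was not tested.

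**Figure D4:**
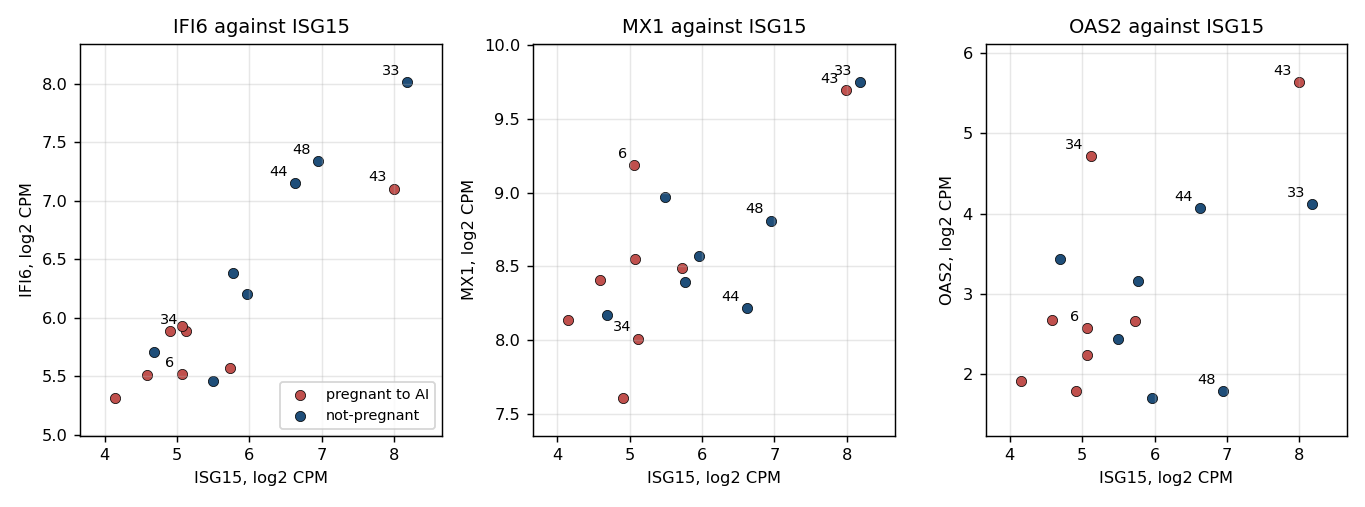
Log2 CPM of IFI6, MX1 and OAS2 (vertical axes) against ISG15 (horizontal axes), with 1 point per heifer coloured by group and 6 heifers labelled by ID. IFI6 follows ISG15 through heifers 44 and 48 up to heifer 33. Heifer 43 departs from this, with more ISG15 but less IFI6 than heifers 44 and 48. Heifer 6 lies high for MX1 and heifer 34 high for OAS2 at low ISG15.

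The genes most like the 6 were sought by the r of every other tested gene with the mean of their standardized log2 CPM. The 10 most similar genes had r between 0.873 and 0.955, and in all 10 the highest heifers were 43 and 33. These heifers were also extreme for the 6, so choosing by r favours such genes. The closest was ENSBTAG00000046580 (r = 0.95), followed by ENSBTAG00000020166 (r = 0.95). Without heifers 33 and 43 their r was 0.85 and 0.87, and 7 of the 10 stayed among the 100 most similar. None of the 10 was called between the groups, against 5.85% of all genes tested, and a count of 0 among 10 is near that share. Their log2 fold changes lay between -0.26 and 0.28. The deposited tables give no gene names, so these genes are given by ID only.

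Groups were compared by edgeR's quasi-likelihood test over the 12270 genes. To be called, a gene needed a log2 fold change of 0.5 or more in either direction and an adjusted p no higher than 0.05 (Benjamini-Hochberg). None of the 6 genes was called, against 5.85% of all genes tested (3.66% called higher with a pregnancy to AI and 2.19% called lower). An unadjusted p under 0.05 was found for 1 of the 6, IFI6, which was lower, against 34.4% of all genes, or 17.1% counting lower genes alone. The estimate was positive for MX2, RSAD2 and OAS2 and negative for ISG15, MX1 and IFI6. The median log2 fold change of the 6 was -0.05, against 0.01 over all genes. DESeq2 was also run here, in a later version than the study's, with Benjamini-Hochberg adjustment and the same thresholds. It called 1 of the 6, IFI6, against 9.1% of all genes (1116). The study reports far fewer genes from an older version of DESeq2, and its abstract names a Bonferroni correction. The cause of this gap was not tested.

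IFI6 had a log2 fold change of -0.91 (SE 0.36, edgeR adjusted p = 0.093), with a 95% interval of -1.68 to -0.15. Of the 8 heifers pregnant to AI, 7 were below the not-pregnant median. In DESeq2 the log2 fold change was also -0.91 and the adjusted p was 0.0461. It was -0.762 in limma-voom (limma-voom adjusted p = 0.137) and -0.725 with library size in place of TMM (edgeR adjusted p = 0.151). IFI6 was called in neither of these. Leaving out heifer 37 (not-pregnant, 43.8 CPM) gave the only edgeR call among the fits without a single heifer, with a log2 fold change of -1.06 and an edgeR adjusted p of 0.0365, and in that fit 13% of all genes were called. Without heifer 33 the log2 fold change was -0.58 (edgeR adjusted p = 0.217). By the exact permutation test over all splits into 8 and 7 heifers, the mean log2 CPM of IFI6 differed by -0.77 (two-sided, unadjusted p = 0.0696).

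ISG15 had a log2 fold change of -0.73 (SE 0.60, edgeR adjusted p = 0.393) with a 95% interval of -2.001 to 0.53, and the exact permutation test gave p = 0.15, unadjusted. This value moved with the extreme heifers, to -1.63 without heifer 43 (edgeR adjusted p = 0.0504) and to -0.18 without heifer 33 (edgeR adjusted p = 0.842). Without both it was -1.08 (SE 0.32, edgeR adjusted p = 0.0813), and IFI6 was -0.86 (SE 0.27, edgeR adjusted p = 0.0852). In that fit, which was made after the values were seen, none of the 6 was called, against 0.554% of all genes (0.0407% called lower), and ISG15 and IFI6 had an unadjusted p under 0.05, against 27.6% of all genes. ISG15 then ran from 17.6 to 53.0 CPM in 7 heifers pregnant to AI and from 25.6 to 123 CPM in 6 not-pregnant heifers, so the groups still overlapped.

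As for ISG15, the intervals of the other 4 genes included 0. The log2 fold change was -0.15 for MX1 (95% interval -0.78 to 0.49) and 0.04 for RSAD2 (-0.86 to 0.94, the mean log2 CPM differing by -0.15), with edgeR adjusted p of 0.752 and 0.956. MX2 was at 0.47 (95% interval -0.74 to 1.69) and OAS2 at 0.51 (-0.79 to 1.80), with edgeR adjusted p of 0.579 and 0.578. These values were smaller in limma-voom, at 0.11 and 0.10, and the mean log2 CPM of MX2 and OAS2 differed by 0.10 and 0.07. The intervals of MX2 and OAS2 leave room for differences of more than 1 on the log2 scale higher in heifers pregnant to AI. Without heifer 43, MX2, RSAD2 and OAS2 turned to -0.41, -0.54 and -0.21, and without heifer 33 MX1 turned to 0.10, none of them called.

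**Figure D5:**
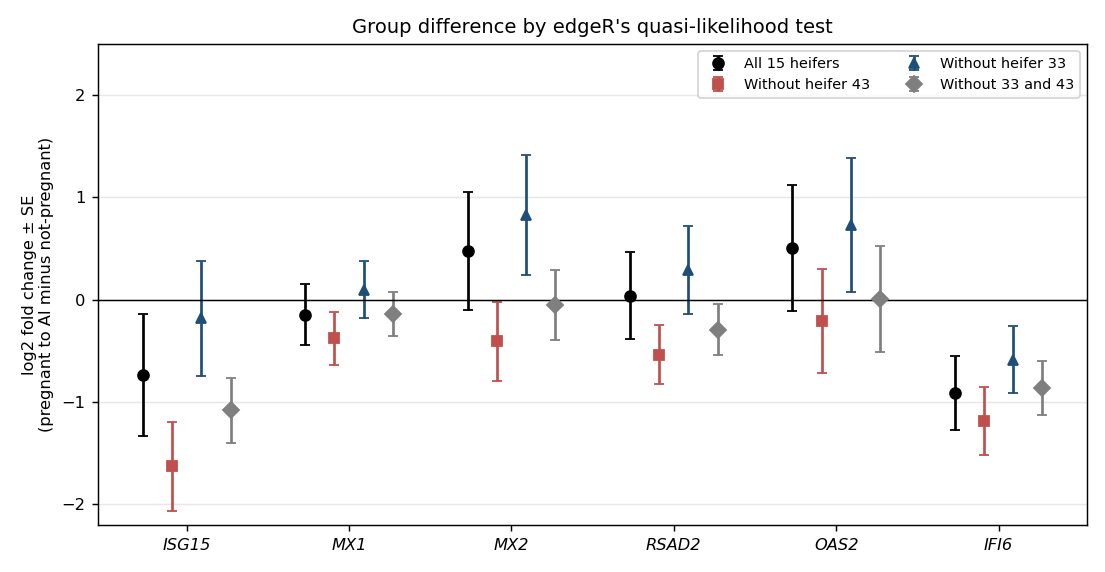
Log2 fold change of each gene, pregnant to AI minus not-pregnant, with its SE as the bar, from all 15 heifers and from fits without heifer 43, without heifer 33 and without both. ISG15 and IFI6 stay below 0 in all 4 fits, whereas MX2, RSAD2 and OAS2 lie above 0 with all heifers and below 0 without heifer 43, and MX1 crosses 0 without heifer 33.

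Library measures were set beside the 6 genes in 18 relations (library size, TMM factor and the share of counts in the 100 most abundant genes). None passed 0.05 after adjustment over 15 heifers, the lowest adjusted permutation p being 0.276. Over the 13 heifers without 33 and 43, IFI6 had r = -0.70 and rho = -0.56 with the TMM factor (permutation tests, p = 0.00453 and 0.0492, adjusted p = 0.0815 and 0.295). RSAD2 had r = -0.68 and rho = -0.76 with library size there (permutation tests, p = 0.0115 and 0.00385, adjusted p = 0.103 and 0.0693). IFI6 had r = 0.61 with the share of the 100 most abundant genes (permutation test, p = 0.0274, adjusted p = 0.164). ISG15 had r = -0.55 with the TMM factor and 0.55 with that share (permutation tests, p = 0.0523 and 0.0504, adjusted p = 0.178 for each). None of the 18 passed 0.05 after adjustment over the 13 heifers. TMM factors were 0.916 to 1.14 in the group pregnant to AI and 0.842 to 1.06 in the not-pregnant group. The part of these measures in the group differences was not tested. In a mixture such as PWBC, more cells of a responding type and more RNA per cell cannot be told apart.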

How the data were processed

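RNA from PWBC of 15 heifers was sequenced as 100 bp paired-end reads, with 1 library per heifer. The authors mapped the reads with STAR 2.7.5 to Ensembl's Bos taurus genome ARS-UCD1.2 and deposited raw counts per gene from STAR, without normalization. The annotation release is not given in the sources used here. The authors also deposited CPM values made with edgeR 3.28.1, which equal the raw counts scaled to library size over 12270 genes, with a largest relative difference of 5e-15, and carry no TMM factor.

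From the raw counts, a gene was kept where 8 or more heifers reached a CPM of 1. Libraries were scaled by TMM, and groups were compared by edgeR's quasi-likelihood test (edgeR 4.0.16, R 4.3.3) with pregnancy status as the only term and Benjamini-Hochberg adjustment over the 12270 genes. The SE is the absolute log2 fold change over the square root of F. Log2 CPM had a prior count of 2. The exact permutation test was two-sided over all splits, and correlations used 100000 permutations (Python 3.11.15, scipy 1.17.1). The edgeR, DESeq2 and limma-voom fits were tested on simulated data. Alternatives were DESeq2 1.42.0, limma-voom (limma 3.58.1), other scalings and filters, 1 surrogate variable (sva 3.50.0) and each heifer left out with the tested genes held fixed.

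The 6 genes, the lists and the tests were chosen with earlier results of these data known. The named genes were the 6 and the 10 most similar, of which 2 are printed by ID. The symbols of the 6 come with their IDs from the rule that chose them. The reference table used here matched 0 of the 27607 IDs, so 19 planned lists of interferon pathway genes and leukocyte markers were not run, the cell type was not checked against its markers, and no promoter was searched.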

Additional observations from a re-analysis of the deposited data

Results flagged for a closer look

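Gaps were examined in 12 sets of values, and in 7 of them the highest heifer's distance to the next was large for the range of its group (above Dixon's 95% critical value). Chance gives about 1 in 20 for normally distributed values, and CPM values are skewed. On log2 CPM, a scale added after the data were seen, 4 of the 7 remained, all of heifer 43, and 0 of heifer 33. The 7 belonged to heifer 43 (4 sets) or heifer 33 (3 sets). Because the 6 genes move together in these heifers, the 7 are not independent.

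In heifers pregnant to AI, heifer 43 had 254.4 CPM of ISG15, against 53.0 CPM in the next heifer. It had 308.9 CPM of MX2, against 58.3 CPM, and 95.8 CPM of RSAD2, against 31.5 CPM. For IFI6 it had 137.3 CPM, against 60.7 CPM. Its values for MX1 and OAS2 were also the highest of the group but closer to the next, which were heifers 6 and 34.

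In not-pregnant heifers, heifer 33 had 289.9 CPM of ISG15, against 123 CPM in the next heifer. It had 861.7 CPM of MX1, against 503 CPM, and 121.8 CPM of MX2, against 62.3 CPM. For RSAD2, OAS2 and IFI6 it was highest too, without such a gap. Heifer 33 had the largest library, with 24909038 counts, and heifer 43 had 18883920 counts and the highest TMM factor, 1.14, and the lowest share of counts in the 100 most abundant genes, 19.1%. The part of these in the values was not tested.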

How the results depend on the processing

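With all 15 heifers edgeR called 0 of the 6 genes and 718 genes in all, and the median r of the 6 genes was 0.61. DESeq2 called 1 of the 6, IFI6 at -0.91, and 1116 genes, with the same counts and value without its replacement of outlying counts, which was chosen after the data were seen. Library size in place of TMM shifted the median over all genes to 0.18 from 0.01 and turned MX1 to 0.0163, with 917 of 1013 calls higher in heifers pregnant to AI against 449 of 718. In limma-voom RSAD2 turned to -0.16, and MX2 and OAS2 were 0.11 and 0.10 against 0.47 and 0.51. One surrogate variable turned MX2, RSAD2 and OAS2 to -1.09, -0.55 and -0.91 and put ISG15, MX1 and IFI6 at -1.73, -0.74 and -1.06. All 6 were then negative, with a median of -0.98 against -0.0052 over all genes. In that fit edgeR called 0 genes, with 1193 genes and 3 of the 6 (ISG15, MX1 and IFI6) at an unadjusted p under 0.05. No filter gave 448 calls among 20583 genes, Bonferroni adjustment 4 and no limit on the fold change 1491. Without heifers 33 and 43, chosen after the data were seen, MX2 turned to -0.0533 and RSAD2 to -0.29, 68 genes were called and the median r was 0.19. Robust dispersion and RLE size factors left every direction and call of the 6 as they were.

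Over the 15 fits without a single heifer, the log2 fold change lay between -1.63 and -0.18 for ISG15, -1.19 and -0.58 for IFI6, -0.38 and 0.10 for MX1, -0.41 and 0.83 for MX2, -0.54 and 0.29 for RSAD2, and -0.21 and 0.73 for OAS2. The lowest value came without heifer 43 and the highest without heifer 33 for each gene. RSAD2, close to 0 with all heifers, reversed in 5 of the 15 fits. The 6 genes had 0 to 1 calls, all genes 80 to 1875 (without heifers 48 and 4), and the median r was 0.49 to 0.72. The cause of these changes was not tested. No paired analysis was possible because no heifer is in both groups. The planned counts over lists of interferon genes were not run, since the IDs could not be matched to names. Depth limits OAS2 most.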
